A study of Mus musculus with 12 samples.

Results

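The 74 genes described here encode proteins of the cytosolic ribosome, 29 of the small subunit and 45 of the large subunit, among 56941 gene IDs in the count table. They were chosen by symbol: every gene whose symbol has the form Rps, Rpl or Rplp with a number (an a or x may follow), or is Rpsa, with at least 1000 counts summed over all libraries. Of 76 symbols of that form, Rps10 with 740 counts and Rpl24 with 71 counts fell under the limit and are not among the members. Both share most of their sequence with other annotated genes, as given below, so a low count need not mean a low level. The lowest member was Rpl13a, with 20498 counts. All 74 members passed the filter on low counts. They were measured in RAW264.7 cells, a murine macrophage line, with RNA taken from 6 control samples and 6 compressed samples after 24 h. Cells of both groups grew on a porous insert beneath an agarose cushion. In the compressed group a weight on the cushion applied 0.14 kPa, and in the control group the cushion lay on the cells alone. The labels name no genetic change or added agent in either group, and they do not say whether each group's 6 samples were separate cultures. The p-values therefore measure only how these samples vary, which may be technical variation.

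The cytosolic ribosome is built from rRNA and about equimolar amounts of many proteins, most of them encoded in the mouse by a single active gene with many processed pseudogenes. The small subunit decodes mRNA, and the large subunit forms peptide bonds and holds the exit tunnel and the stalk that recruits elongation factors. Transcripts of these genes begin with a terminal oligopyrimidine (TOP) tract, a cytidine followed by an unbroken run of C and T in the gene's sequence, through which TOR signaling controls their translation together. They are among the shortest and most abundant mRNAs of a growing cell.

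Pyrimidine runs near annotated starts are shown for 10 members, as examples of the letters behind the counts given after them. They are the members with the highest and the lowest differences between groups, 5 at each end, among those with a tract in the RefSeq table of promoter windows (GRCm38.p6), as measured without compressed replicate 6. Each line gives 30 bases, 5′ to 3′ on the gene's strand, with the longest run of at least 8 pyrimidines that starts with C in capitals. Rpl3, Rpl17 and Rpl8 have no window in that table. The first 5 lines are the highest and the last 5 the lowest.
Rpl5 (chr5:107900497-107900526, plus strand): gcctacagccaCTCTTTCTCacgtcgcttg
Rpl13a (chr7:45128722-45128751, minus strand): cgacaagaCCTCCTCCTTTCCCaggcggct
Rpl39 (chrX:37085173-37085202, minus strand): gttcttccggtcccggCCTTTCTCTTCTCC
Rps6 (chr4:86857349-86857378, minus strand): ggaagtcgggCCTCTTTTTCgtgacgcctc
Rpl36a (chrX:134585672-134585701, plus strand): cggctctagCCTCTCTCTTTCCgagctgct
Rps21 (chr2:180257399-180257428, plus strand): ggaggcacgagctaCTTCCTTTCTgcgctc
Rpl18 (chr7:45718062-45718091, plus strand): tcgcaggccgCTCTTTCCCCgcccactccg
Rpl14 (chr9:120571501-120571530, plus strand): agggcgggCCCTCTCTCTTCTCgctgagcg
Rpl27 (chr11:101442193-101442222, plus strand): gtcatcctcgCTCCTCCCTCCacacgccgg
Rps2 (chr17:24720083-24720112, plus strand): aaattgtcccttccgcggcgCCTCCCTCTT

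Since the 10 were taken from members with a run, its presence in each was fixed by that choice. The run began at -1 from the annotated start (negative values lie before it) for Rps6, 1 for Rpl18, 2 for Rpl13a and -8 for Rpl14. The other 6 runs began farther away, at -20 for Rpl5, 27 for Rpl36a, 34 for Rps21, 36 for Rpl39, 40 for Rps2 and -42 for Rpl27, and those of Rpl39 and Rps2 ended at the edge of the window. Most of the runs shown are thus not at the start the annotation gives.

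A window was found by symbol for 54 of the 74 members. Within 50 bases on each side of an annotated start, on the gene's strand, 47 of these 54 (87.0%) held such a run, against 32.0% of the 27025 genes in the table. The letters CTTTC or CTTTT, which can lie within the run, were found in 38 members (70.4%) and in 24.4% of all genes. The letters CCGGAA on either strand, the core of an ETS factor motif, were found in 17 members (31.5%) and in 9.24% of all genes. A gene with several annotated starts was counted once if any start held the letters, and annotated starts can lie some bases from the starts the cells use. A match describes these letters and is not evidence of a site in use.

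Compressed replicate 6 stood apart from the other 11 libraries, and the main results are given with and without it. Library totals ran from 37948795 to 40463545 counts in controls and from 33460807 to 39103987 in compressed samples. Between compressed replicate 6 and the other compressed libraries the mean chi-square per gene was 171 to 230, against 3.54 to 17 among compressed replicates 1 to 5 and 2.20 to 8.32 among controls. All 8 macrophage markers tested passed the filter on low counts, and they summed to 0.560 to 0.597% of counts in controls, 0.650 to 0.720% in compressed replicates 1 to 5 and 0.753% in replicate 6. The markers did not move together: 3 rose and 3 fell with 12 libraries, and 4 rose and 4 fell without replicate 6 (edgeR). Over all tested genes 24.5% rose and 21.9% fell with 12 libraries, and 33.8% and 32.2% without replicate 6. Of 12 markers of fibroblasts, epithelium, T cells, B cells and endothelium none passed the filter over 12 libraries, Cd3e and Ms4a1 had 0 counts, and their sum was at most 9.92e-05% of counts in any library. The part of the differences among macrophage markers in the results below was not tested. In bulk RNA, fewer cells of a state and less RNA per cell cannot be told apart.

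The members held close to the same share of all counts in control and compressed cells, apart from replicate 6. In controls the share was lowest at 4.67%, with a median of 4.83% and a highest value of 4.90% (4.81% ± 0.0889, SD, n = 6). Compressed replicates 1 to 5 held 5.06%, 5.12%, 4.80%, 4.65% and 4.51% (4.83% ± 0.263, SD, n = 5), so that replicates 1 and 2 lay above every control and replicates 4 and 5 below every control. Compressed replicate 6 held 8.12%. With it, the compressed mean was 5.38% ± 1.37 (SD, n = 6). The difference between group means was 0.566 percentage points with replicate 6 and 0.0168 percentage points without it.

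**Figure D1:**
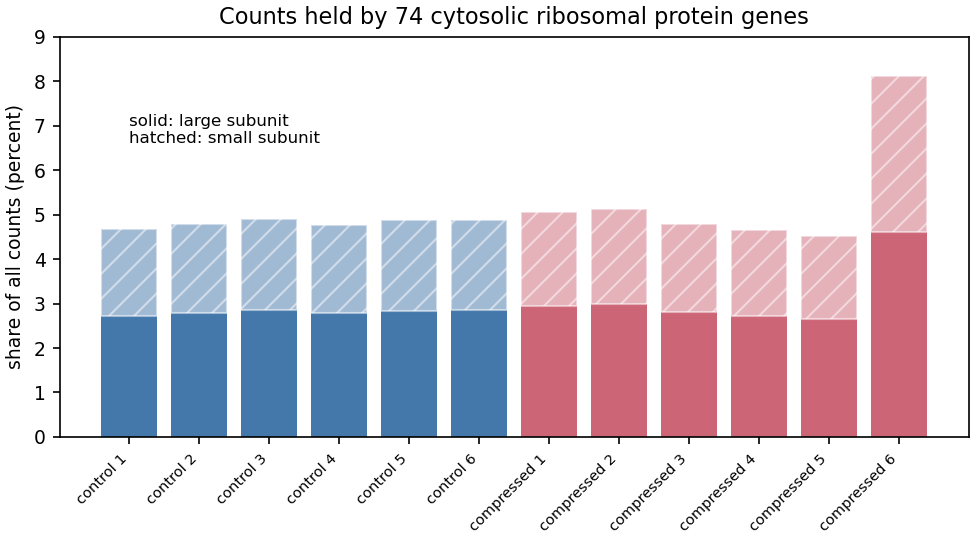
Share of all counts held by the 74 genes in each library (percent, bars from 0), with the large subunit solid and the small subunit hatched, controls in blue and compressed samples in red. The 6 controls lie between 4.67% and 4.90%, compressed replicates 1 to 5 between 4.51% and 5.12%, and compressed replicate 6 at 8.12%.

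Both subunits moved together across libraries. The 29 small subunit genes held 41.4 to 41.8% of the members' counts in 11 libraries and 43.3% in compressed replicate 6. Adding the 298 pseudogene IDs named after a member, which held 1.15% as many counts as the members, gave shares of 4.87% ± 0.0917 in controls (n = 6) and 4.88% ± 0.265 in compressed replicates 1 to 5 (n = 5).

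Levels are compared between genes per length, as counts over the median length of a gene's annotated transcripts, scaled to a sum of 1000000 in each library (TPM). The 74 members spanned 122 to 3852 TPM in controls, with a median of 1464 and quartiles of 1043 and 1964. Rplp1, an acidic protein of the stalk, had the highest level at 3852 ± 65.8 TPM (SD, n = 6). Rps24 followed at 2991 ± 60.1 TPM and Rps12 at 2884 ± 71.0 TPM, both proteins of the small subunit, and these neighbours differ by less than 2 SD of either. The lowest members were Rps15a at 179 ± 3.69 TPM, Rpl13a at 145 ± 4.05 TPM and Rpl29 at 122 ± 2.78 TPM. The level of Rps15a rests on an annotated length of 5130 bases, and with the coding length of 390 bases in its place it ranked 37 of 74, whereas Rpl13a and Rpl29 remained the lowest on that scale, at 72.5 and 110 TPM. For Rpl13a the transcript length used, 495 bases, is shorter than its coding length of 609 bases. Rpl13a and Rpl29 also share much sequence with other genes, as given below, so their low counts need not mean low levels. Rpl41, which encodes the shortest protein of the ribosome, ranked 8 by transcript length and 1 by coding length. Over the 74 members the orders on these scales had a Spearman rho of 0.70.

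In the fit of all 12 libraries, 5 members rose in compressed cells and 0 fell, by edgeR's quasi-likelihood test at an adjusted p of 0.05 or less over 15001 genes. That is 6.76% of the members, where 24.5% of all tested genes rose and 21.9% fell. At an unadjusted p under 0.05, 17 members were higher and 0 lower, beside 27.5% and 24.9% of all genes, and DESeq2 called 5 higher and 0 lower, beside 18.2% and 16.7% of the genes for which it gave an adjusted p. The log2 fold change was above 0 for all 74 members, from 0.10 for Rpl4 to 0.38 for Rpl39, with a median of 0.24, against a median of 0.02 over all tested genes. Every one of the 74 was at its highest of the 12 libraries in compressed replicate 6.

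Without compressed replicate 6, 34 members rose and 0 fell, which is 45.9% of the members beside 33.8% of all 15117 tested genes that rose and 32.2% that fell. At an unadjusted p under 0.05, 41 were higher and 0 lower, beside 35.1% and 33.4% of all genes. DESeq2 on the same 11 libraries called 25 higher and 0 lower, beside 22.8% and 21.8% of genes with an adjusted p. The differences were small. The median log2 fold change of the members was 0.07, beside 0.00 over all genes, 59 lay above 0 and 15 below, and the range was -0.07 for Rps2 to 0.22 for Rpl5. The 5 members called with all 12 libraries were also among the 34. The count rested in part on 2 compressed libraries. With replicate 1 left out as well, 17 of the 74 rose and 2 fell, beside 32.8% and 31.3% of all genes. Leaving out replicate 2 in its place gave 21 higher (28.4%, beside 33.3% of all genes) and 2 lower (beside 31.9%). In both the share of members that rose was below that of all genes. The large subunit had 23 of 45 members called (median 0.08) and the small subunit 11 of 29 (median 0.07).

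The number and direction of the calls depended on the scaling. With library size alone in place of TMM factors and replicate 6 left out, 7 members rose (9.46%, beside 28.8% of all genes) and 10 fell (13.5%, beside 38.0%), with a median log2 fold change of 0.02 and an all-gene median of -0.05. The sign of the difference turned for 15 of the 74, and none of the 34 called with TMM factors was among those that fell. Those that rose were Rpl5, Rpl3, Rpl13a, Rpl17, Rps4x, Rps6 and Rpl36, and each was also called higher with TMM factors. Those that fell included Rps2, Rpl27, Rpl8, Rpl14, Rplp1, Rpl18, Rpl35, Rpl7a and Rpl41, and none of the 10 was called with TMM factors.

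**Figure D2:**
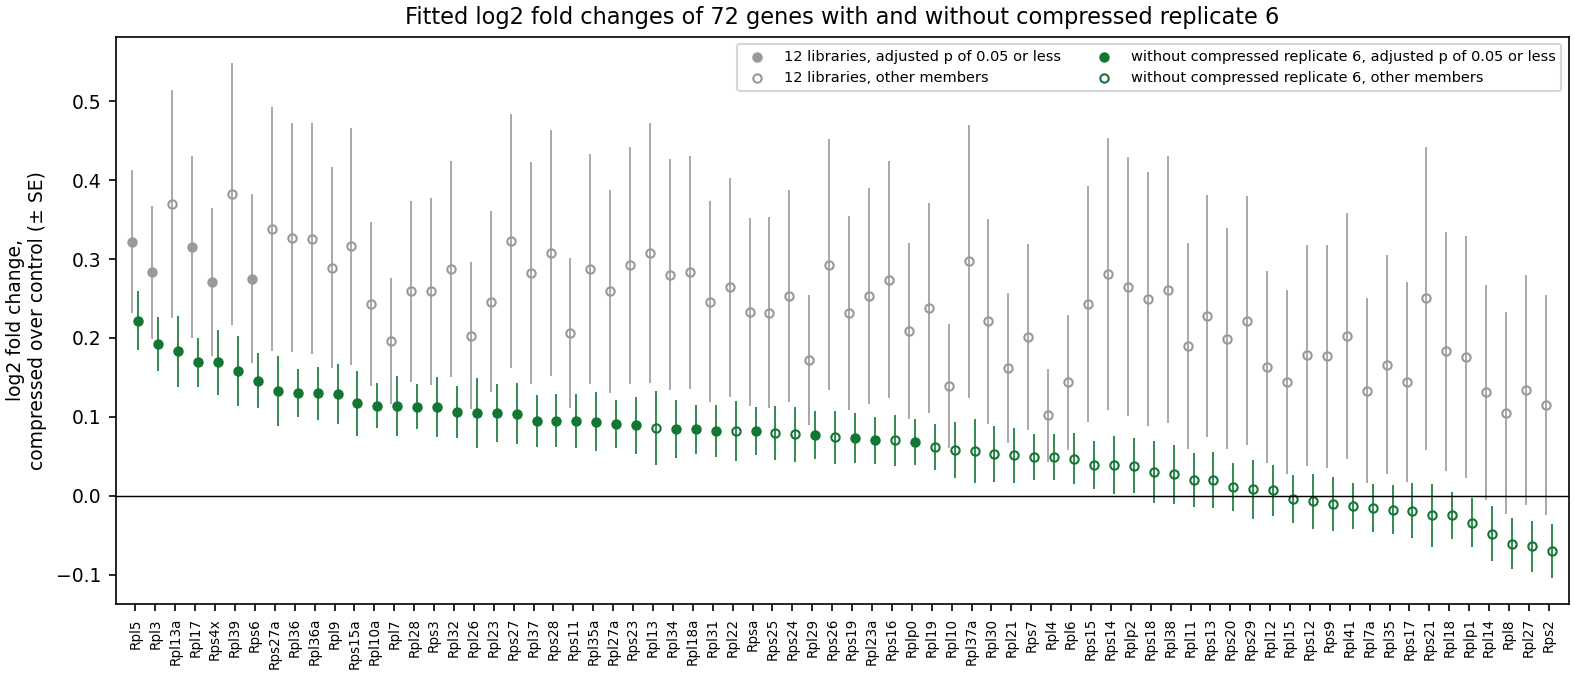
Log2 fold change of compressed over control for 72 of the 74 genes, with its standard error, from the fit of 12 libraries (grey) and from the fit without compressed replicate 6 (green); filled points have an adjusted p of 0.05 or less. All grey points lie above 0, 5 of them filled, and the green points run from 0.22 for Rpl5 to -0.07 for Rps2, 34 of them filled.

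Rpl5, which with Rpl11 binds 5S rRNA before it joins the large subunit, rose in both fits and had the largest difference without replicate 6. Its counts per 1000000 counts of the TMM-scaled library (CPM) in controls were 735 at the lowest, 770 at the median and 811 at the highest. Compressed replicates 1 to 5 ran from 827 to 973 CPM with a median of 916, and replicate 6 had 1279 CPM. The groups did not overlap with or without replicate 6. The log2 fold change was 0.32 ± 0.0909 (SE, adjusted p = 0.0101, edgeR) with all libraries and 0.22 ± 0.0378 (adjusted p = 3.46e-05) without replicate 6. Its partner Rpl11 did not pass the test: controls ran from 605 to 634 CPM (median 615) and compressed replicates 1 to 5 from 580 to 675 CPM (median 622), with 1090 CPM in replicate 6. The log2 fold change of Rpl11 was 0.19 ± 0.131 with all libraries (edgeR, adjusted p = 0.259) and 0.02 ± 0.0338 without replicate 6 (adjusted p = 0.625).

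Rpl3 and Rpl17, proteins of the large subunit near the peptidyl transferase centre and at the tunnel, rose as well, and neither overlapped between groups. Rpl3 ran from 885 to 927 CPM in controls (median 909) and from 949 to 1099 CPM in compressed replicates 1 to 5 (median 1058), with 1438 CPM in replicate 6. With 12 libraries this gave 0.28 ± 0.0838 on the log2 scale (edgeR, adjusted p = 0.0133), and 0.19 ± 0.0345 (adjusted p = 6.55e-05) without replicate 6. Rpl17 ran from 762 to 798 CPM in controls (median 775), from 824 to 924 CPM in compressed replicates 1 to 5 (median 886), and had 1422 CPM in replicate 6. A log2 fold change of 0.32 ± 0.116 (edgeR, adjusted p = 0.0390) became 0.17 ± 0.0314 (adjusted p = 8.88e-05) without replicate 6. Rpl5, Rpl3 and Rpl17 were the only members whose CPM did not overlap between groups, in 12 libraries and in 11. They are 4.05% of the members, where 16.5% of all genes lay above and 17% below without overlap in 12 libraries, and 24.8% above and 24.8% below in 11.

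Of the 6 members listed for their place near the peptidyl transferase centre or tunnel, 2 rose with 12 libraries and 3 without replicate 6, where 24.5% and 33.8% of all genes rose. Besides Rpl3 and Rpl17, Rpl39 rose without replicate 6 and Rpl4, Rpl10 and Rpl22 did not pass in either fit. The places in this list were not checked against a structure, and it does not hold every such member. It leaves out Rpl8, described below, which passed in neither fit, at 0.11 with 12 libraries and -0.06 without replicate 6. Rpl39, among the shortest members, ran from 214 to 225 CPM in controls (median 221), from 215 to 273 CPM in compressed replicates 1 to 5 (median 247), and reached 493 CPM in replicate 6. Its log2 fold change was the highest of all members with 12 libraries, 0.38 ± 0.166, with an adjusted p of 0.0759 (edgeR), and was 0.16 ± 0.0449 without replicate 6 (adjusted p = 0.00428). The longest coding sequence belonged to Rpl4, which changed least with 12 libraries, at 0.10 ± 0.0587 (edgeR, adjusted p = 0.175), and at 0.05 ± 0.0295 without replicate 6 (adjusted p = 0.155).

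In the small subunit, Rps4x and Rps6 rose in both fits. Rps4x, encoded on the X chromosome, ran from 952 to 1053 CPM in controls (median 1005), from 1025 to 1232 CPM in compressed replicates 1 to 5 (median 1162), and had 1623 CPM in replicate 6, so the groups overlapped. It rose by 0.27 ± 0.0938 on the log2 scale (edgeR, adjusted p = 0.0297), and 0.17 ± 0.0410 (adjusted p = 0.00123) without replicate 6. Rps6 is the substrate by which S6 kinase was first known. It ran from 495 to 537 CPM in controls (median 512) and from 528 to 612 CPM in compressed replicates 1 to 5 (median 571), with 882 CPM in replicate 6. The call for Rps6 was at the limit with all libraries, at 0.28 ± 0.107 (edgeR, adjusted p = 0.0499), and lay well inside it without replicate 6, at 0.15 ± 0.0349 (adjusted p = 0.00111).

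Rpsa, Rps3 and Rps27a, small subunit members followed for their roles, rose without replicate 6 and did not pass in the main fit of 12 libraries. Rpsa, known also as the laminin receptor precursor, had 1710 to 1790 CPM in controls (median 1742) and 1712 to 1929 CPM in compressed replicates 1 to 5 (median 1869), a log2 fold change of 0.08 ± 0.0309 (edgeR, adjusted p = 0.0262). Rps3, which lines the mRNA entry channel, had 1063 to 1126 CPM in controls (median 1116) and 1111 to 1320 CPM in compressed replicates 1 to 5 (median 1181), a log2 fold change of 0.11 ± 0.0382 (edgeR, adjusted p = 0.0147). Rps27a, made as a fusion with ubiquitin, had 696 to 751 CPM in controls (median 718) and 708 to 883 CPM in compressed replicates 1 to 5 (median 779), a log2 fold change of 0.13 ± 0.0443 (edgeR, adjusted p = 0.0125). In all 3 the groups overlapped. With 12 libraries, in which replicate 6 held 3069, 1957 and 1505 CPM of Rpsa, Rps3 and Rps27a, their adjusted p-values were 0.128, 0.0928 and 0.0916 (edgeR). With library size alone and without replicate 6 they were 0.489, 0.216 and 0.140. With 12 libraries and the trend with transcript length removed, as given below, they were 0.0466, 0.00934 and 0.0112 (edgeR).

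Rpl13a, a large subunit protein with a role outside the ribosome in the translational silencing of inflammatory mRNAs, rose without replicate 6. It ran from 37.9 to 41.4 CPM in controls (median 39.9), from 39.9 to 50.3 CPM in compressed replicates 1 to 5 (median 46.1), and had 82.5 CPM in replicate 6. The fitted log2 fold change was 0.37 ± 0.144 (edgeR, adjusted p = 0.0504) with all libraries and 0.18 ± 0.0446 (adjusted p = 0.00129) without replicate 6.

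The stalk, formed by Rplp0 and the acidic pair Rplp1 and Rplp2, had 1 of 3 members called higher without replicate 6 and 0 with it, by edgeR, where 33.8% and 24.5% of all genes rose. Rplp0 had 1005 to 1048 CPM in controls (median 1033) and 1013 to 1122 CPM in compressed replicates 1 to 5 (median 1074), with 1732 CPM in replicate 6. The log2 fold change was 0.21 ± 0.111 with replicate 6 (edgeR, adjusted p = 0.146) and 0.07 ± 0.0288 without it (adjusted p = 0.0445). Rplp1 and Rplp2 did not pass in either of these fits, with log2 fold changes of -0.03 ± 0.0316 and 0.04 ± 0.0352 without replicate 6 (edgeR, adjusted p = 0.355 and 0.356) and of 0.18 ± 0.154 and 0.27 ± 0.164 with it (adjusted p = 0.376 and 0.209). With library size alone Rplp1 fell by 0.09 on the log2 scale (adjusted p = 0.0155).

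At the other end of the order, Rps2, Rpl27, Rpl8 and Rpl14 had the lowest log2 fold changes without replicate 6, and none passed the test with TMM factors. Rps2, which lines the mRNA entry channel beside Rps3, ran from 572 to 607 CPM in controls (median 592), from 514 to 592 CPM in compressed replicates 1 to 5 (median 562), and reached 1019 CPM in replicate 6. Its log2 fold change was 0.12 ± 0.139 with replicate 6 (edgeR, adjusted p = 0.532) and -0.07 ± 0.0340 without it (adjusted p = 0.0782). Rpl8, a large subunit protein that contacts the peptidyl transferase region, ran from 1207 to 1277 CPM in controls (median 1255), from 1115 to 1280 CPM in compressed replicates 1 to 5 (median 1189), and reached 2068 CPM in replicate 6. The log2 fold change of 0.11 ± 0.128 became -0.06 ± 0.0324 without replicate 6 (edgeR, adjusted p = 0.534 and 0.104). For both genes the sign of the difference rested on 1 library.

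**Figure D3:**
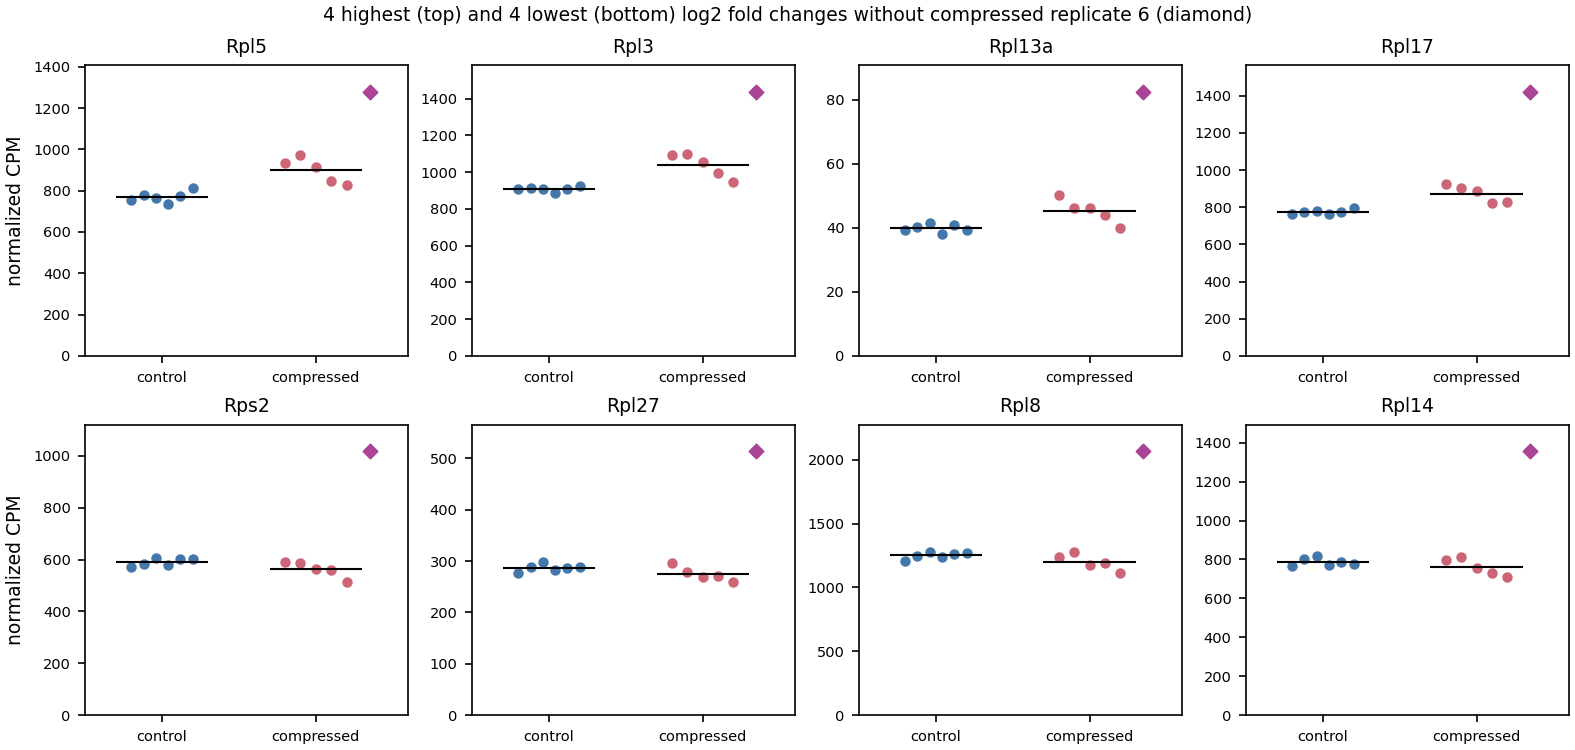
CPM of the 4 members with the highest (top row) and the 4 with the lowest (bottom row) log2 fold changes without compressed replicate 6, on axes that start at 0, with controls in blue, compressed replicates 1 to 5 in red, their means as lines and compressed replicate 6 as a diamond. Rpl5, Rpl3 and Rpl17 show no overlap between groups, Rps2 and Rpl8 overlap, and the diamond is the highest point in every panel.

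A comparison that needs no scaling factor is the share of each gene in the summed counts of the 74 members. Without replicate 6, 7 members held a larger share in every compressed library than in any control, and 17 held a smaller share in every compressed library, while 50 overlapped. The 7 are 9.46% of the members. When every tested gene was divided by the same sum, 18% lay above and 27.6% below without overlap, so separation was no more frequent among the members than among all genes. The 7 were Rpl5, Rpl3, Rpl17, Rpl13a, Rpl32, Rps4x and Rps6, and all 7 were called higher by edgeR with TMM factors. Of these, 6 were also called with library size alone, the exception being Rpl32.

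Rpl5 made up 1.59 to 1.69% of the members' counts in controls and 1.79 to 1.87% in compressed replicates 1 to 5, with 1.52% in replicate 6. Rpl3 made up 1.89 to 1.98% in controls, 2.06 to 2.15% in compressed replicates 1 to 5 and 1.71% in replicate 6. In both genes replicate 6 thus lay on the other side of the controls from the rest of its group. Rpl8 made up 2.64 to 2.67% in controls and 2.40 to 2.50% in compressed replicates 1 to 5, with 2.45% in replicate 6. Rps2 made up 1.24 to 1.26% in controls, 1.12 to 1.18% in compressed replicates 1 to 5 and 1.21% in replicate 6. In these the replicate lay on the same side as its group. With all 12 libraries 3 members (4.05%) were higher without overlap, namely Rpl32, Rpl17 and Rpl13a, and 8 (10.8%) were lower, beside 5.61% and 27.3% of all genes.

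**Figure D4:**
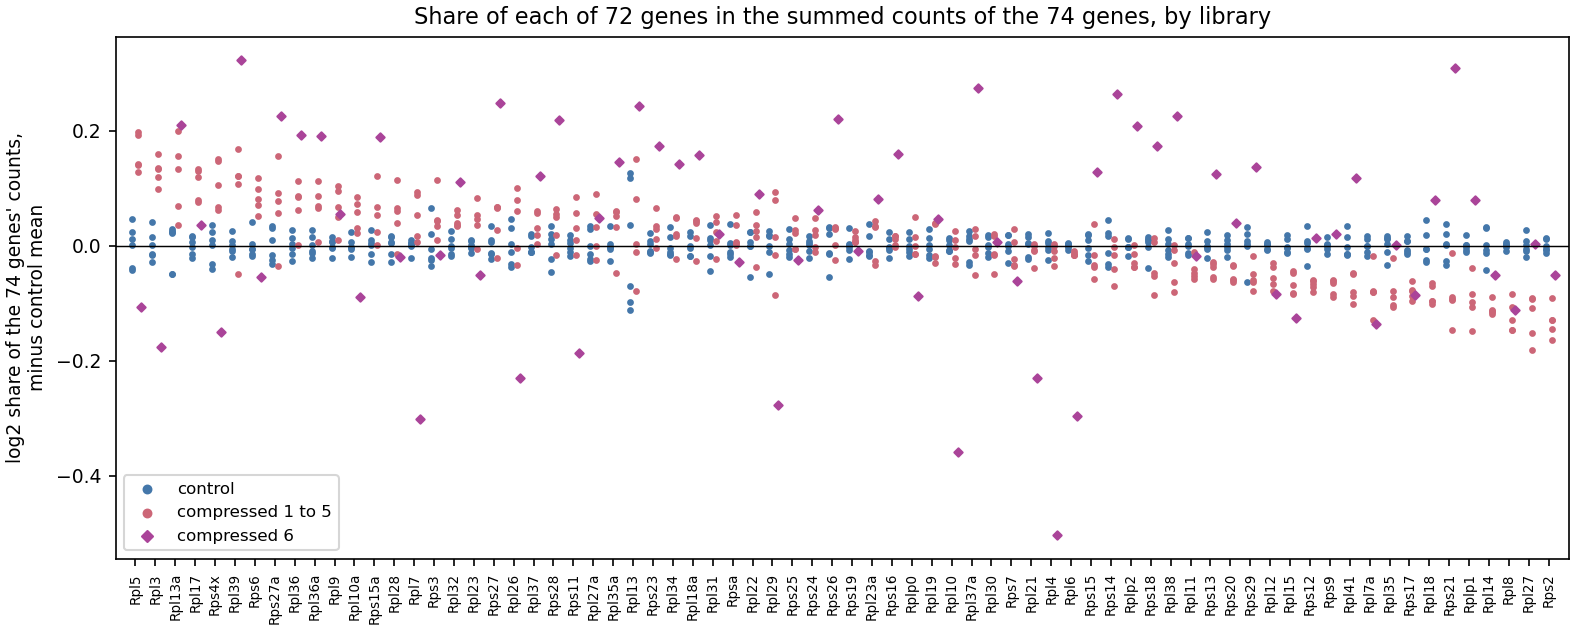
Log2 share of 72 of the 74 genes in the summed counts of all 74, minus its control mean, for each control (blue), compressed replicates 1 to 5 (red) and compressed replicate 6 (diamond), in order of the mean difference of replicates 1 to 5. Rpl5 is at the left, with all 5 red points above its controls, Rps2 at the right, with all 5 below, and the diamonds do not follow that order.

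Variation between libraries differed between the groups. The coefficient of variation of a member's CPM had a median of 2.31% over the 6 controls, 5.67% over compressed replicates 1 to 5 and 28.9% over all 6 compressed libraries. Among compressed replicates 1 to 5 the members ranked the libraries much alike. Replicate 1 held the highest value for 33 members and replicate 2 for 41, whereas replicate 5 held the lowest for 62, replicate 4 for 10 and replicate 3 for 2. The members are not independent replicates of this pattern, since they share each library.

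In compressed replicate 6 the members stood 1.22- to 2.25-fold above the mean of the other compressed libraries, with a median of 1.79-fold. Members with short coding sequences tended to stand higher. The lowest values were those of Rpl4 (1.22-fold, coding length 1257 bases), Rpl10 (1.34-fold, 642 bases), Rpl7 (1.34-fold, 810 bases) and Rpl3 (1.38-fold, 1209 bases), while Rpl39 (153 bases) stood 2.00-fold and Rpl41 (75 bases) 1.95-fold above. Over the 74 members, which share the same libraries, the Spearman rho of this ratio with coding length was -0.64. Other tested genes of that library also varied with transcript length, with a median ratio of 1.45 for transcripts up to 1000 bases, 1.21 for 1000 to 2000, 0.895 for 2000 to 4000 and 0.626 above 4000. In the same classes the members' median ratios were 1.82 (58 members), 1.60 (12), 1.80 (3) and 1.88 (1 member), which did not fall with transcript length as those of other genes did. Those over 2000 bases were Rpl5, Rpl22, Rps20 and Rps15a, with coding lengths of 891, 384, 357 and 390 bases. Their classes thus rest on the annotated transcript length. When the trend with transcript length was removed within each library, 43 members were called higher with 12 libraries (58.1%, beside 28.9% of all genes) and 51 without replicate 6 (68.9%, beside 34.7%). By edgeR 0 members were lower in both, beside 27.1% and 33.4% of all genes. Of the 34 members called without replicate 6, 33 were also called there with that trend removed. The removal used the same annotated lengths, and Rps15a moved from 0.32 to 0.47 on the log2 scale with 12 libraries.

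**Figure D5:**
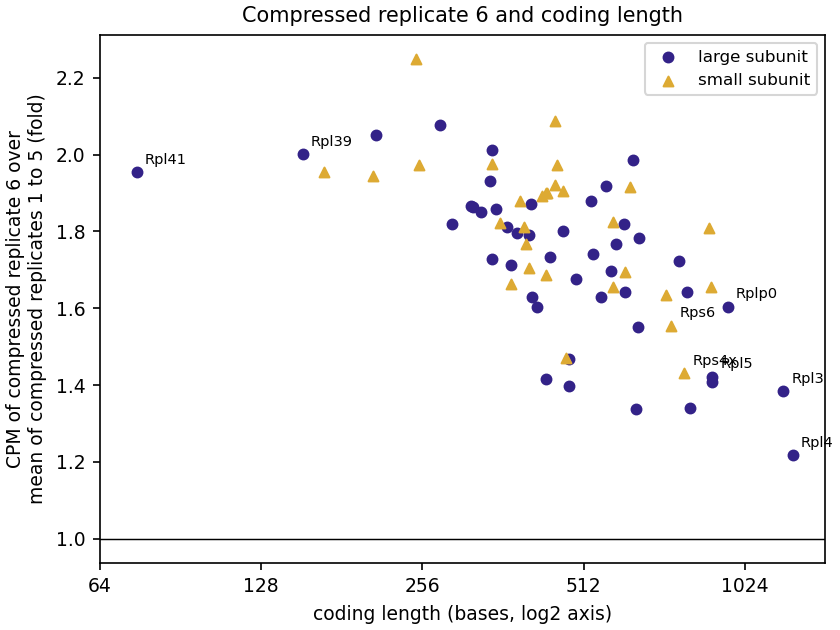
CPM of compressed replicate 6 over the mean of compressed replicates 1 to 5 (fold) against coding length (bases, log2 axis) for the 74 genes, large subunit as circles and small subunit as triangles. All points lie above 1, from 1.22 for Rpl4 to 2.25, and the longest coding sequences, those of Rpl3 and Rpl4, are among the lowest.

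Sequence shared with other genes limits what some members' counts mean. Counts for a member can include or lose reads of its pseudogenes, and the sources used here do not name the counting program or its rule for such reads. Over runs of 100 bases, 5 members, among them Rpl22, Rpl32, Rps3 and Rps21, shared no run with the transcripts of any other annotated gene, 27 shared over 50% of their runs, and the median was 34.4%. Of the 11 members that shared under 10%, 5 were called higher without replicate 6 by edgeR, beside 33.8% of all genes. The median log2 fold change of the 11 was 0.08. They include Rps15a (3.0%) and Rps20 (5.9%), whose shares were taken over annotated transcripts of 5179 and 3706 bases. Their coding lengths are 390 and 357 bases, so these low shares depend on the annotation. Rps15a was among the 5 called and Rps20 was not. Among members named above, Rpl3 shared 79.4% of its runs, Rpl17 77.1% and Rps6 83.6%, and Rpl3-ps1, a pseudogene of Rpl3, held 69777 counts of its own. Rpl13a and Rpl29, the lowest by level, shared 55.2% and 50.3%. Rps10 and Rpl24, left out for few counts, shared 75.7% and 80.1%. Some loci with Gm names, which are not among the 298 pseudogene IDs, share sequence with members and held many counts. Gm15772 held 192831 counts where Rpl26, with which it shares 32.6% of these runs, held 52974. Gm8730, which shares 27.3% of the runs of 50 bases in Rplp0, held 289011 counts. The shares and counts with pseudogenes added do not include these loci. Of the 298 pseudogene IDs, 125 passed the filter over 12 libraries, of which 2 rose and 0 fell, and 3 rose and 3 fell without replicate 6 (edgeR). All tested genes gave 24.5% higher and 21.9% lower with 12 libraries, and 33.8% and 32.2% without replicate 6. The calls in that list with the largest change, Rps7-ps2 and Rpl35a-ps7, held a mean of 1.54 and 0.311 CPM in controls.

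Ribosomal protein genes outside the symbol rule were followed as well. Of 14, 13 were in the table and 10 were tested, of which 2 rose and 1 fell with 12 libraries, and 3 rose and 2 fell without replicate 6. Over all tested genes 24.5% rose and 21.9% fell with 12 libraries, and 33.8% and 32.2% without replicate 6. Fau, made as a fusion of a ubiquitin-like protein with a small subunit protein, rose from 456 ± 8.53 CPM in controls (SD, n = 6) to 528 ± 21.3 CPM in compressed replicates 1 to 5 (n = 5), a log2 fold change of 0.21 (edgeR, adjusted p = 2.68e-06 without replicate 6 and 0.0414 with it). Rps27l, a paralogue of Rps27 that p53 induces, had 121 ± 4.40 CPM in controls and 89.5 ± 6.99 CPM in compressed replicates 1 to 5, and fell by 0.44 on the log2 scale without replicate 6 (edgeR, adjusted p = 2.09e-08, against 0.282 with it). Rack1, a scaffold on the head of the small subunit, had a log2 fold change of 0.02 and Rpl22l1, the paralogue of Rpl22, one of -0.01 without replicate 6, and neither passed (edgeR, adjusted p = 0.563 and 0.864, and 0.276 and 0.301 with all libraries). Rpl3l, a paralogue of Rpl3 with 263 counts in all, rose in both fits, by 0.84 on the log2 scale without replicate 6 (edgeR, adjusted p = 0.000189).

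The factors that work with the ribosome did not move as one group. Their counts stand beside 33.8% of all genes that rose and 32.2% that fell without replicate 6 (24.5% and 21.9% with it). Of 6 elongation factor genes 2 rose and 2 fell without replicate 6 (1 and 0 with it), with a median log2 fold change of 0.02. Eef1a1, which delivers aminoacyl-tRNA, rose from 8800 ± 145 CPM (SD, n = 6) to 10032 ± 393 CPM in compressed replicates 1 to 5 (n = 5), a log2 fold change of 0.19 (edgeR, adjusted p = 8.87e-06), and 9828 CPM in replicate 6 gave 0.18 with all libraries (adjusted p = 0.00236). Of 37 initiation factor genes 4 rose and 23 fell without replicate 6 (3 and 12 with it), with a median of -0.12. Eif2b4, a subunit of the exchange factor for initiation factor eIF2, fell by 0.56 on the log2 scale without replicate 6, and Eif4g1, the scaffold of the cap-binding complex, fell by 0.37 (edgeR, adjusted p = 3.23e-10 and 5.79e-09). With replicate 6 both also fell, by 0.50 and 0.48 (adjusted p = 2.61e-05 and 0.00536). Of 21 other genes whose transcripts carry a TOP tract, 7 rose and 3 fell without replicate 6 (6 and 1 with it), with a median of 0.02. Vim, an intermediate filament gene, had the largest difference in that list, 0.95 on the log2 scale without replicate 6 and 0.98 with it (edgeR, adjusted p = 2.11e-14 and 6.92e-09).

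Genes of the TOR pathway, which governs translation of the members' mRNAs, were tested for 16 of 17, and 4 rose and 5 fell without replicate 6 (4 and 4 with it). Beside this, 33.8% of all genes rose and 32.2% fell without replicate 6, and 24.5% and 21.9% with it. Ddit4, an inhibitor of TOR complex 1, rose from 17.8 ± 0.960 CPM in controls to 34.0 ± 1.71 CPM in compressed replicates 1 to 5, a log2 fold change of 0.93 (edgeR, adjusted p = 3.80e-13, and 5.66e-09 with replicate 6 included). Eif4ebp1, a repressor of cap-dependent initiation that TOR phosphorylates, rose by 0.41 on the log2 scale without replicate 6 and by 0.59 with it (edgeR, adjusted p = 1.76e-10 and 0.00234). Larp1, which binds TOP tracts and was picked after its values were seen, had 498 ± 10.7 CPM in controls and 381 ± 10.4 CPM in compressed replicates 1 to 5 and fell by 0.39 on the log2 scale (edgeR, adjusted p = 1.60e-10, and 1.84e-06 with replicate 6 included). RNA levels do not measure the activity of this pathway or the translation of the members.

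Of 10 tested genes of ribosome rescue and quality control, 3 rose and 5 fell without replicate 6 (2 and 3 with it). For this list and those that follow, 33.8% of all genes rose and 32.2% fell without replicate 6. With it, 24.5% rose and 21.9% fell. Usp10, which removes ubiquitin from small subunit proteins, fell by 0.54 on the log2 scale, and Map3k20, the kinase that responds to collided ribosomes, rose by 0.63 (edgeR, adjusted p = 5.38e-12 and 2.81e-12). With replicate 6 they fell by 0.61 and rose by 0.56 (adjusted p = 2.39e-05 and 0.000192). Other lists with many short, abundant transcripts had more genes that fell than rose without replicate 6. Of 78 genes of the mitochondrial ribosome 4 rose and 61 fell (median -0.29), although Mrpl14 and Mrpl52, the called genes of that list with the largest changes with 12 libraries, rose by 0.36 and 0.35 without replicate 6 and by 0.58 and 0.56 with it. Of 78 tested respiratory chain subunits encoded in the nucleus 8 rose and 48 fell (median -0.13), and of 38 tested proteasome subunits 5 rose and 31 fell (median -0.21). In replicate 6 the median gene of these 3 lists stood 1.55-, 1.82- and 1.48-fold above the mean of the other compressed libraries, beside 1.79-fold for the members. With that replicate included the calls of these lists were 4 and 22, 4 and 5, and 5 and 8, higher and lower. Whether the members differ from these lists was not tested.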

How the data were processed

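RNA from 12 samples, 6 control and 6 compressed, was sequenced as strand-specific, mRNA-enriched libraries. GRCm39 is the build in the submitters' processing notes, and STAR 2.7.2 was the aligner. The authors deposited raw counts for each Ensembl ID, unfiltered and not normalized. The sources used here do not name the counting program, its strand setting or the annotation release. The authors' own table of fold changes and p-values was not used.

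Names and lengths came from GENCODE M21 by ID, for 52000 of 56941 IDs that hold 99.5% of counts, and no position on GRCm39 was used. Promoter letters are RefSeq's, on GRCm38.p6. Where a symbol had several IDs the one with most counts was kept. The main test was that of edgeR 4.0.16 in R 4.3.3 (filterByExpr with a minimum count of 10, TMM, quasi-likelihood test on group alone, Benjamini-Hochberg over all tested genes, called at an adjusted p of 0.05 or less). DESeq2 1.42.0, limma 3.58.1, Python 3.11.15 and pandas 2.3.3 were also used. Standard errors were taken as the size of the log2 fold change divided by the root of edgeR's F, so they restate that test. The procedure was tested on simulated data.

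The members and gene lists were chosen with earlier results of these data known. Members named are the 5 highest and 5 lowest log2 fold changes in each of both fits, the 3 highest and lowest per length and 15 with a fixed role, and of each other list up to 2 called genes with the largest change, with Rack1, Fau, Rps27l and Rpl22l1. Some of these genes are not reported here. Alternatives were DESeq2, RLE factors, library size alone, TMM factors without the members, other low-count filters, replicate number as a block, leaving out each library, voom with sample weights, removal of the length trend and addition of pseudogenes. Alternatives on 11 libraries, apart from the length trend, and the comparison of shares within the members' counts were chosen after seeing the data. The spread between libraries exceeded counting error, and the reads carry no molecular identifiers, so PCR copies are counted too.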

Additional observations from a re-analysis of the deposited data

Results flagged for a closer look

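Compressed replicate 6 lay far above the other 5 libraries of its group in the share of counts held by the members and in the CPM of most members. The measure is the gap between the highest library and its nearest neighbour over the range of the group, and in a group of 6 a ratio above 0.625 is beyond Dixon's critical value. Chance gives such a ratio in about 1 in 20 groups. For the share of counts, 8.12% in replicate 6 against at most 5.12% in the other compressed libraries, the ratio was 0.831. Of the 60 groups examined, controls and compressed samples for that share and for 29 members, 28 were beyond the critical value, and all 28 owe it to replicate 6. No control group was among them. Over all 74 members 71 were beyond it, with ratios from 0.601 to 0.911. The members share the same libraries, so these counts restate 1 library many times and cannot be set against 1 in 20. Replicate 6 was also known to stand apart beforehand, and some members were named for fold changes that include it.

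For named small subunit members the ratio of replicate 6 was 0.853 for Rps12, 0.844 for Rps2, 0.84 for Rpsa, 0.833 for Rps24, 0.802 for Rps15a, 0.78 for Rps27a, 0.762 for Rps6, 0.753 for Rps3 and 0.654 for Rps4x. For large subunit members it was 0.909 for Rpl41, 0.873 for Rplp1, 0.87 for Rpl36, 0.867 for Rplp2, 0.858 for Rpl27, 0.848 for Rplp0, 0.847 for Rpl36a, 0.836 for Rpl7a, 0.836 for Rpl14 and 0.832 for Rpl17. It was also 0.827 for Rpl8, 0.825 for Rpl29, 0.822 for Rpl22, 0.814 for Rpl11, 0.791 for Rpl39, 0.756 for Rpl13a, 0.693 for Rpl3 and 0.676 for Rpl5. Of the 29 named members only Rpl10 and Rpl4 stayed inside the limit.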

How the results depend on the processing

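With 12 libraries, 5 members were called higher and 0 lower by edgeR, beside 24.5% and 21.9% of all genes. The number higher was 4 to 6 with DESeq2, RLE factors, TMM factors without the members, other low-count filters, the replicate block or added pseudogenes. In those fits 11.4 to 26.3% of all genes were higher. The number of members was 2 with library size alone (beside 20.5% of all genes) and 39 with voom and sample weights (beside 34.3%). With the length trend removed it was 43 (beside 28.9%). Leaving out 1 library at a time gave 2 to 34, the 34 being without compressed replicate 6 and the 2 without compressed replicate 2 or control replicate 1, 2, 3 or 4. Without compressed replicate 4 or 5 it was 9 and 10. No member was called lower under these settings. On 11 libraries, without compressed replicate 6, 34 were higher and 0 lower, beside 33.8% and 32.2% of all genes. With DESeq2, RLE factors, TMM factors without the members, added pseudogenes or the length trend removed, 25 to 51 were higher and 0 lower. In those fits 22.8 to 34.7% of all genes were higher and 21.8 to 33.4% lower. Library size alone gave 7 higher and 10 lower on 11 libraries, beside 28.8% and 38.0%. Leaving out a further library gave 17 to 47 higher. The 17 were without compressed replicate 1 (beside 32.8% of all genes) and the 47 without compressed replicate 5 (beside 32.7%). From 0 to 2 were lower, the 2 without compressed replicate 1 or 2 (beside 31.3% and 31.9%). For these counts the cause was not tested. The median log2 fold change of the members stayed above 0 throughout, from 0.072 to 0.293 in the settings on 12 libraries or with 1 left out, the 0.072 being without compressed replicate 6, and from 0.015 to 0.1 on 11 libraries, the 0.015 with library size alone.

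No pairing by replicate number was seen: after removal of the group means, same-numbered libraries correlated at -0.12 to 0.040 across genes. The compressed mean included replicate 6, and libraries with different numbers were not compared. These values therefore cannot show whether a weak pairing exists. With the replicate number as a block, 4 members were called higher and 0 lower with 12 libraries. With compressed replicate 6 and control replicate 6 both left out, the block gave 19 higher and 0 lower. The 19 are 25.7% of the members, below the 31.1% of all genes that rose in that fit. The fit that called 34 kept control replicate 6, so the counts of 19 and 34 differ in libraries as well as in the block.

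Named members changed sign without compressed replicate 6 and with voom weights, in which that library had little weight, and none of these values passed the test. In that order the log2 fold changes were -0.061 and -0.054 for Rpl8, -0.07 and -0.056 for Rps2, -0.048 and -0.037 for Rpl14, -0.016 and -0.006 for Rpl7a, -0.064 and -0.05 for Rpl27, -0.034 and -0.02 for Rplp1, and -0.013 and -0.002 for Rpl41. Rps12 was at -0.007 without that library. With 1 library left out at a time, these values were the lowest and those without compressed replicate 5 the highest, 0.154 for Rpl8, 0.17 for Rps2, 0.181 for Rpl14, 0.178 for Rpl7a, 0.184 for Rpl27, 0.231 for Rplp1 and Rps12, and 0.254 for Rpl41. Of the members called with 12 libraries, Rpl5 and Rpl3 kept their call under every setting on 12 libraries, whereas Rpl17, Rps4x and Rps6 lost theirs under some, with adjusted p-values up to 0.0822, 0.0767 and 0.112 with library size alone (edgeR).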
